A study of Mus musculus with 10 samples.

Results

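The genes described here are the core of the Sonic hedgehog pathway, namely *Shh*, *Ptch1*, *Smo*, *Gli1*, *Gli2*, *Gli3*, *Hhip* and *Sufu*, each taken from the gene table by its symbol. Of the 8 genes, 7 had a row among the 15900 genes of the table, and *Gli1* was not analysed here. All 7 passed the filter on low values, which required at least 0.1 CPM, the tags of a gene scaled to a common library total, in at least 2 libraries and left 15851 genes.

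The data were cap analysis of gene expression (CAGE) libraries of the whole hippocampus of ICR mice aged 9 to 10 weeks, in 5 groups of 2 mice. CAGE captures the capped 5′ ends of RNA, so that each tag marks 1 transcript start and a level in CPM needs no correction for gene length. The pre-SE mice had no status epilepticus (SE) and are labelled untreated, whereas the methods of the study state that control mice received saline in place of pilocarpine. The other 4 groups received methyl scopolamine, which blocks peripheral muscarinic receptors, followed by pilocarpine, a muscarinic agonist that starts SE, and diazepam to end the seizures. Whether control mice also received methyl scopolamine or diazepam is not stated separately. SE 6 h and SE 2 days mice were sampled 6 h and 2 days after SE without further treatment named. SE + LEV 6 h mice had 1 oral dose of levetiracetam (LEV), an anti-seizure drug that binds the synaptic vesicle protein SV2A, and SE + LEV 2 days mice had 5 doses. No engineered allele is named for any group. The comparisons ask how SE moved each gene at either time and whether LEV moved it further.

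In the hedgehog pathway, the secreted ligand Shh binds the receptor Patched1, which otherwise keeps the membrane protein Smoothened inactive at the primary cilium. Smoothened then acts through the Gli transcription factors, while Sufu holds the Gli proteins back and Hhip binds the ligand at the cell surface. *Ptch1*, *Hhip* and *Gli1* are themselves transcribed in response to the pathway, and in the adult hippocampus it is known for its role in the neural stem cells of the dentate gyrus and in astrocytes.

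In the mm9 genome, the build of the deposited table, *Shh* lies at chr5:28783355-28793641 on the minus strand, *Ptch1* at chr13:63610261-63674474 on the minus strand and *Smo* at chr6:29685694-29711365 on the plus strand. *Gli2* lies at chr1:120730709-120950196 on the minus strand, *Gli3* at chr13:15555068-15821859 on the plus strand, *Hhip* at chr8:82490014-82581905 on the minus strand and *Sufu* at chr19:46471386-46563294 on the plus strand. These are whole gene bodies from the GENCODE annotation of that build. *Shh* overlaps 2 noncoding genes on the other strand, *9530036O11Rik* and *Gm17493*, and *Smo* overlaps 1 pseudogene on its own strand, *Gm13717*. None of these 3 had a row in the table, and how tags were assigned to overlapping genes is not given in the sources used here. The other 5 members overlap no annotated gene.

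Of the 7 measured genes, 6 have a promoter entry in RefSeq (GRCm38.p6), covering 250 bases before to 50 bases after the start. The 250 bases before the start are shown for *Ptch1* and *Hhip*, the measured members that are both pathway targets and brakes on it and that had the lowest levels relative to pre-SE at 2 days. Capitals mark the GC box GGGCGG, or CCGCCC on the other strand, a short element bound by Sp1-type factors; *Ptch1* is at chr13:63565736-63565985 and *Hhip* at chr8:80058009-80058258, both on the minus strand and written 5′ to 3′.
*Ptch1*: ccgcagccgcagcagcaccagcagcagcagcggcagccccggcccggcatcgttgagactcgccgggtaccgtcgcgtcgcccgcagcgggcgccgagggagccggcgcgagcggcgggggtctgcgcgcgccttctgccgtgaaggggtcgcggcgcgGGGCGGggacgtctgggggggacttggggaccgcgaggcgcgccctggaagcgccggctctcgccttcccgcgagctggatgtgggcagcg
*Hhip*: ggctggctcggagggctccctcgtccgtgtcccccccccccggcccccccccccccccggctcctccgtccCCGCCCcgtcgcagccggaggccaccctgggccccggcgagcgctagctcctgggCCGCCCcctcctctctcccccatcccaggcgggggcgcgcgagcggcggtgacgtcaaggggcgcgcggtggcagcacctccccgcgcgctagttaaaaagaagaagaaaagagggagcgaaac
In the full 300-base windows, 5 of the 6 members with an entry held a GC box, as did 35.7% of all 32851 promoters. *Smo* was the member without it. The Gli consensus GACCACCCA, searched on both strands, was in 0 of the 6 windows and in 0.253% of all promoters. GC content ran from 56.3% in *Sufu* to 76.3% in *Ptch1*, against a median of 52.7% over all promoters.

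The 10 libraries held between 10540698 and 51710968 tags on the listed genes. A level of 3 tags, here the detection limit, equalled 0.058 to 0.285 CPM depending on the library, under the lowest value of any member. Defining markers of the labelled tissue were present in every library, with summed levels of 3743 to 6967 CPM for 8 neuronal genes and 2914 to 5426 CPM for 10 astrocyte genes. Libraries stood apart in the choroid plexus, the secretory tissue that borders the hippocampus. The summed level of its 3 markers with a row was 1696 CPM in pre-SE replicate 2, 3985 CPM in SE 6 h replicate 2, 857.5 CPM in SE + LEV 6 h replicate 1 and 1499 CPM in SE + LEV 2 days replicate 1, and 8.2 to 65.4 CPM in the other 6 libraries. In the libraries with a high level, nearly all of it was *Ttr*, which encodes transthyretin. In the low libraries the share of *Ttr* was smaller, as with 4.33 of 8.2 CPM in SE 6 h replicate 1. The split ran within every group except SE 2 days, where both mice were low, at 65.4 and 21.8 CPM. Comparisons with SE 2 days therefore differed in choroid plexus level as well. The median log2 fold change of the markers was -1.48 in SE 2 days against pre-SE. It was 2.52 in SE + LEV 2 days against SE 2 days. The fit was repeated with the summed choroid plexus marker level as a covariate.

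**Figure D1:**
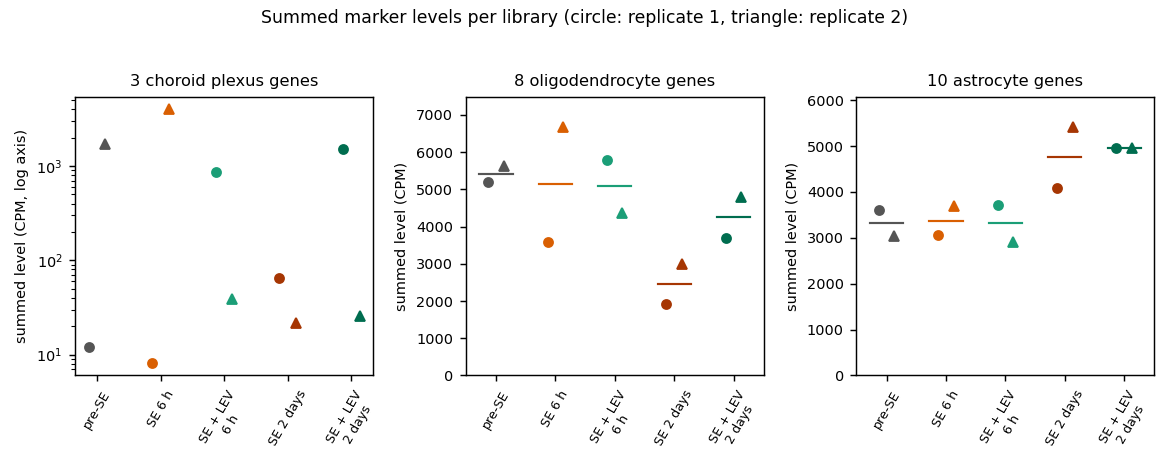
Summed CPM of choroid plexus (log axis), oligodendrocyte and astrocyte marker genes in each library, by group, with 1 symbol per mouse and a line at the group mean in the linear panels. The choroid plexus level splits the mice of every group except SE 2 days, for example from 8.2 to 3985 CPM in SE 6 h. The oligodendrocyte sum was lowest in both SE 2 days mice, at 1933 and 2990 CPM.

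All 7 genes were expressed at low levels, below the median of 22.6 CPM over all genes tested. In mean CPM over the 10 libraries (± SD, n = 10), the order was *Sufu* at 13.6 ± 2.46, *Ptch1* at 12.3 ± 4.29, *Gli3* at 9.05 ± 1.92, *Smo* at 7.32 ± 1.93, *Gli2* at 6.42 ± 0.752, *Hhip* at 3.78 ± 1.49 and *Shh* at 1.85 ± 0.522. Neighbours in this order from *Sufu* down to *Gli2* had mean within-library differences of 0.905 to 3.23 CPM. The SDs of these differences over the libraries were larger, at 1.53 to 5.3 CPM, and the order was not tested. *Sufu* exceeded *Ptch1* in 6 of 10 libraries and *Ptch1* exceeded *Gli3* in 6 of 10. *Gli3* exceeded *Smo* in 8 of 10 and *Smo* exceeded *Gli2* in 8 of 10. *Gli2* exceeded *Hhip* in 10 of 10 libraries and *Hhip* exceeded *Shh* in 8 of 10. The ratio of the highest to the lowest library was smallest for *Gli2*, at 1.48, and largest for *Hhip*, at 3.52.

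Neither SE nor LEV gave a called change in any of the 7 genes. At an adjusted p of at most 0.05 in limma, 0 of 7 members were called at 6 h after SE, against 2.96% of all genes tested, and 0 of 7 at 2 days, against 5.66%. For LEV the count was 0 of 7 at 6 h, against 0.0126% of genes, and 0 of 7 at 2 days, where no gene of the 15851 was called (0.0%). Also 0 of 7 were called between SE 2 days and SE 6 h (4.25% of genes), in SE + LEV 6 h against pre-SE (0.322%), in SE + LEV 2 days against pre-SE (2.85%) and in the difference between the LEV effects at both times (0.0%). edgeR and DESeq2 on the recovered tag counts likewise called 0 of 7 in all 8 comparisons. At an unadjusted p under 0.05 in limma the counts were 0 of 7 at 6 h (17.7% of genes), 1 at 2 days (19.8%), 2 between the SE times (20.1%), 1 in SE + LEV 2 days against pre-SE (10.8%), 0 with LEV at 6 h (4.58%) and at 2 days (2.7%), 0 in SE + LEV 6 h against pre-SE (9.38%) and 0 in the difference between the LEV effects (2.38%). With 2 mice against 2, an exact permutation test cannot go below a two-sided p of 0.333, so the p-values rest on the spread that limma pooled over genes and groups. Since the tissue was bulk, fewer cells of a type and less RNA per cell cannot be told apart.

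**Figure D2:**
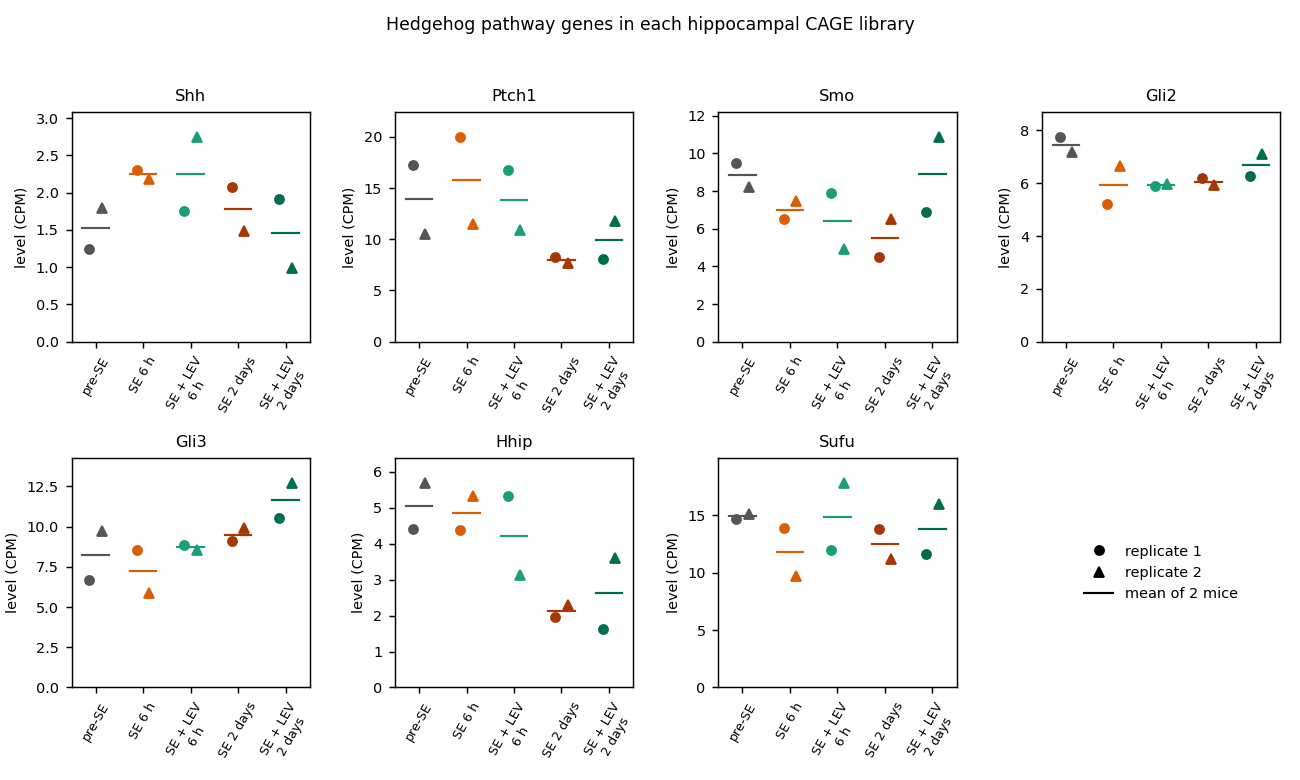
Level in CPM (vertical axis, from 0) of each of the 7 genes in each library, by group, with a symbol per mouse and a line at the mean of 2 mice. *Hhip* and *Ptch1* were lowest in the 2-day groups, and the 2 mice of a group often lay as far apart as the groups.

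*Shh*, the ligand of the pathway, was the least abundant member, read from 24 to 93 tags per library. It was at 1.24 and 1.8 CPM in the pre-SE mice, 2.31 and 2.19 CPM in SE 6 h, 1.76 and 2.75 CPM in SE + LEV 6 h, 2.08 and 1.48 CPM in SE 2 days and 1.92 and 0.99 CPM in SE + LEV 2 days. Both SE 6 h mice lay above both pre-SE mice, and the other groups overlapped pre-SE. Counting error alone gave 95% Poisson intervals of 1.45 to 2.2 CPM for the higher pre-SE mouse and 1.5 to 3.1 CPM for the lower SE 6 h mouse, so these nearest libraries were not separated at this depth. The log2 fold change, here and throughout of CPM + 0.1, was 0.56 at 6 h (standard error 0.44, 95% interval -0.42 to 1.54, limma adjusted p = 0.54) and 0.22 at 2 days (interval -0.76 to 1.2, adjusted p = 0.84). With LEV it was -0.03 at 6 h (interval -1.01 to 0.95) and -0.32 at 2 days (interval -1.30 to 0.65), both with a limma adjusted p of 1.0.

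*Ptch1*, the receptor and a target gene of the pathway, was at 17.28 and 10.56 CPM in the pre-SE mice, 20.01 and 11.51 CPM in SE 6 h, 16.75 and 10.91 CPM in SE + LEV 6 h, 8.23 and 7.69 CPM in SE 2 days and 8.09 and 11.79 CPM in SE + LEV 2 days. The 2 mice of each of the first 3 groups stood further apart than the means of those groups, and both SE 2 days mice lay below every pre-SE and 6 h mouse. At 2 days the log2 fold change against pre-SE was -0.76 (standard error 0.39, interval -1.62 to 0.11, limma adjusted p = 0.32), and against SE 6 h it was -0.92 (standard error 0.39, interval -1.79 to -0.06, adjusted p = 0.22). The estimate at 6 h was 0.17 (interval -0.70 to 1.03, adjusted p = 0.86). LEV gave -0.17 at 6 h (interval -1.03 to 0.70) and 0.29 at 2 days (interval -0.57 to 1.16), with an adjusted p of 1.0 for both. Leaving out 1 mouse moved the 2-day estimate between -1.11 and -0.40, the latter without pre-SE replicate 1.

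*Smo* encodes the membrane protein that passes the signal on once Patched1 is bound by ligand. Its levels were 9.48 and 8.2 CPM in pre-SE, 6.51 and 7.47 CPM in SE 6 h, 7.87 and 4.93 CPM in SE + LEV 6 h, 4.49 and 6.5 CPM in SE 2 days and 6.9 and 10.88 CPM in SE + LEV 2 days. Every SE mouse without LEV and both SE + LEV 6 h mice lay below both pre-SE mice. Both SE + LEV 2 days mice lay above both SE 2 days mice. The log2 fold change was -0.33 at 6 h (interval -1.15 to 0.48, limma adjusted p = 0.67) and -0.70 at 2 days (standard error 0.37, interval -1.51 to 0.12, adjusted p = 0.33). With LEV it was -0.16 at 6 h (interval -0.98 to 0.66) and 0.67 at 2 days (standard error 0.37, interval -0.14 to 1.49), both with an adjusted p of 1.0. The LEV effects at both times differed by 0.83 (standard error 0.52, interval -0.32 to 1.99, limma adjusted p = 1.0), so a difference was not shown. In each library *Ptch1* exceeded *Smo*, by 1.08 to 3.07 times.

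The 2 measured Gli factors differed in spread. *Gli2*, which acts mainly as an activator, was at 7.76 and 7.17 CPM in pre-SE, 5.23 and 6.65 CPM in SE 6 h, 5.91 and 5.98 CPM in SE + LEV 6 h, 6.19 and 5.92 CPM in SE 2 days and 6.26 and 7.11 CPM in SE + LEV 2 days. Each post-SE mouse lay below both pre-SE mice, and the estimates were small, at -0.33 at 6 h (interval -0.98 to 0.32, limma adjusted p = 0.59) and -0.30 at 2 days (interval -0.95 to 0.35, adjusted p = 0.65). LEV gave 0.01 at 6 h (interval -0.64 to 0.66) and 0.14 at 2 days (interval -0.51 to 0.79).

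*Gli3*, which acts mainly as a repressor when the ligand is absent, was at 6.69 and 9.73 CPM in pre-SE, 8.53 and 5.89 CPM in SE 6 h, 8.87 and 8.54 CPM in SE + LEV 6 h, 9.12 and 9.89 CPM in SE 2 days and 10.56 and 12.73 CPM in SE + LEV 2 days. The highest libraries were the SE + LEV 2 days mice, which lay above all 8 others. Against pre-SE that group had a log2 fold change of 0.52 (standard error 0.32, interval -0.19 to 1.22, limma adjusted p = 0.68). SE alone gave -0.18 at 6 h (interval -0.89 to 0.52, adjusted p = 0.80) and 0.23 at 2 days (interval -0.47 to 0.94, adjusted p = 0.75), and LEV gave 0.29 at both times (intervals -0.41 to 1.0 and -0.42 to 0.99). *Gli3* exceeded *Gli2* in 8 of 10 libraries, and the ratio within a library, which no scaling can move, ran from 0.86 in pre-SE replicate 1 to 1.79 in SE + LEV 2 days replicate 2.

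*Hhip*, which encodes a membrane protein that binds and sequesters hedgehog ligands, had the largest difference among the members. It was at 4.41 and 5.7 CPM in pre-SE, 4.39 and 5.34 CPM in SE 6 h, 5.32 and 3.13 CPM in SE + LEV 6 h, 1.95 and 2.29 CPM in SE 2 days and 1.62 and 3.61 CPM in SE + LEV 2 days. Both SE 2 days mice lay below every pre-SE and 6 h mouse, and the 2 SE + LEV 2 days mice lay on either side of them. At 2 days the log2 fold change against pre-SE was -1.21 (standard error 0.44, interval -2.19 to -0.23, unadjusted p = 0.021), a level of 0.433 times pre-SE, which did not pass after adjustment over all genes (limma adjusted p = 0.16). Over the alternatives without a mouse left out, that adjusted p ran from 0.09 with DESeq2 to 0.17. The estimate was -1.16 against SE 6 h (standard error 0.44, interval -2.14 to -0.18, limma adjusted p = 0.18) and -1.02 for SE + LEV 2 days against pre-SE (standard error 0.44, interval -2.0 to -0.04, adjusted p = 0.43). Without SE + LEV 2 days replicate 2 the last of these was -1.57, and without SE + LEV 2 days replicate 1 it was -0.46. At 6 h the estimate was -0.05 (interval -1.03 to 0.93, adjusted p = 0.97), and its sign turned under scalings that centre the median gene. LEV gave -0.24 at 6 h (interval -1.22 to 0.74) and 0.19 at 2 days (interval -0.79 to 1.17).

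*Sufu*, the cytoplasmic inhibitor of the Gli proteins, was the most abundant member. Its levels were 14.69 and 15.1 CPM in pre-SE, 13.92 and 9.73 CPM in SE 6 h, 11.93 and 17.84 CPM in SE + LEV 6 h, 13.82 and 11.18 CPM in SE 2 days and 11.61 and 15.94 CPM in SE + LEV 2 days. The pre-SE mice lay close together, and SE 6 h and SE 2 days mice lay below them. The log2 fold change was -0.35 at 6 h (interval -1.07 to 0.36, limma adjusted p = 0.60) and -0.26 at 2 days (interval -0.97 to 0.45, adjusted p = 0.72), and with LEV it was 0.32 at 6 h (interval -0.39 to 1.04) and 0.13 at 2 days (interval -0.58 to 0.84).

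**Figure D3:**
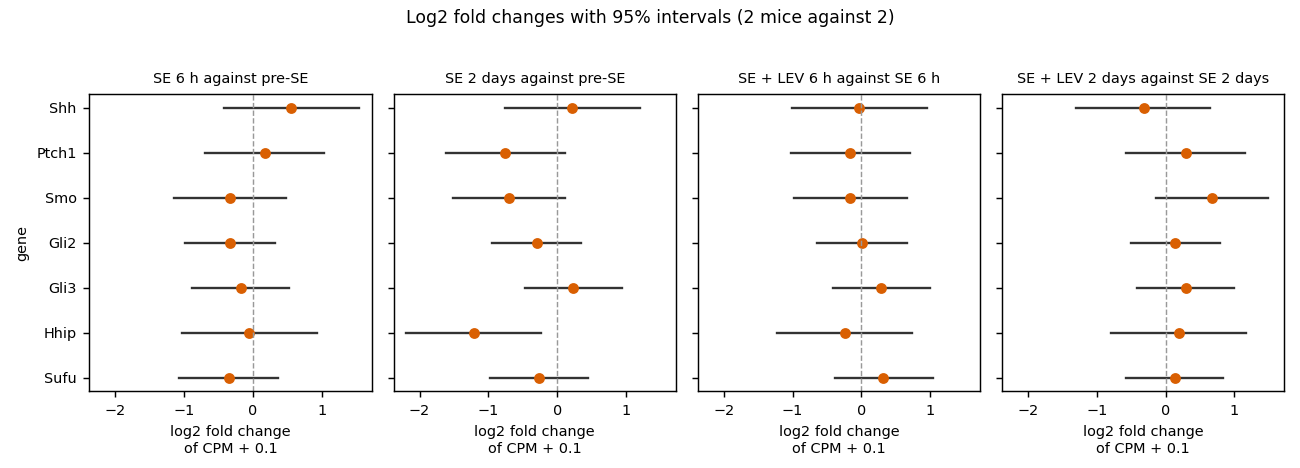
Log2 fold change of CPM + 0.1 (horizontal axis, with 95% intervals as lines) of the 7 genes in 4 comparisons of 2 mice against 2. All intervals include 0 except that of *Hhip* at 2 days after SE, -2.19 to -0.23, whose adjusted p was 0.16.

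Counted by whether both mice of a group lay beyond both mice of the other, 4 of 7 members were separate at 6 h after SE, against 49.9% of all genes tested. At 2 days 5 of 7 were separate, against 52.0% of genes, and all 5 (*Gli2*, *Hhip*, *Ptch1*, *Smo* and *Sufu*) were lower, a direction in which 25.6% of genes were separate. With LEV, 1 of 7 was separate at 6 h (29.5% of genes) and 3 of 7 at 2 days (27.4%), the latter being *Gli2*, *Gli3* and *Smo*, all higher with LEV (15.2% of genes). The median log2 fold change over the 7 genes was -0.18 at 6 h and -0.30 at 2 days after SE, beside -0.13 and -0.03 over all genes tested. For LEV it was -0.03 at 6 h and 0.19 at 2 days, beside 0.04 and 0.04 over all genes. The widest bounds of any member's 95% interval over the 4 comparisons were 0.219 times the reference level for *Hhip* at 2 days after SE and 2.9 times for *Shh* at 6 h.

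Marker levels of other cells also differed at 2 days. The summed level of 8 oligodendrocyte genes was 5188 and 5640 CPM in pre-SE, 1933 and 2990 CPM in SE 2 days and 3704 and 4805 CPM in SE + LEV 2 days. As for *Gli2*, *Hhip*, *Ptch1*, *Smo* and *Sufu*, both SE 2 days mice lay below both pre-SE mice, which held for 25.6% of all genes tested. The summed neuron genes and the summed astrocyte genes without *Gfap*, given below, were separate in the same direction. *Hhip* was lowest, at 1.62 CPM, in SE + LEV 2 days replicate 1, where the oligodendrocyte sum was 3704 CPM and the neuron sum 3743 CPM. *Ptch1* was highest, at 20.01 CPM, in SE 6 h replicate 1, where the oligodendrocyte sum was 3574 CPM and the neuron sum 6333 CPM. A relation over single mice was not tested. The median log2 fold change of the 8 oligodendrocyte genes at 2 days was -1.13, with 0 of 8 called, and in SE + LEV 2 days against SE 2 days it was 0.70, with 0 of 8 called. Of the 10 astrocyte genes, *Gfap* and *Aqp4* were called higher at 2 days, and the median log2 fold change of the list was -0.20. Their sum was 4080 and 5426 CPM in SE 2 days against 3608 and 3038 CPM in pre-SE, but without *Gfap*, the intermediate filament gene of reactive astrocytes, it was 1798 and 1784 CPM against 3362 and 2807 CPM. Of 7 stem or progenitor genes with a row, *Nes* and *Mki67* were called higher and *Neurod1* and *Hes5* lower at 2 days, with a median of -0.66 and a sum of 161.3 and 152.7 CPM against 160.5 and 264.2 CPM in pre-SE. Of 6 microglia genes 1 was called, *Aif1*, which was higher, with a median of 1.02 and a sum of 309.2 and 298.1 CPM against 165.4 and 154.2 CPM. At 2 days 0 of 8 neuron, 0 of 6 endothelial, 0 of 6 mural and 0 of 3 choroid plexus genes were called by limma, with medians of -0.35, 0.79, 0.38 and -1.48. The neuron sum was nonetheless lower in both 2-day groups. It was 6967 and 5616 CPM in pre-SE, 4500 and 3989 CPM in SE 2 days and 3743 and 4290 CPM in SE + LEV 2 days. The endothelial sum was higher, at 117.8 and 106.9 CPM in SE 2 days against 60.1 and 67.6 CPM in pre-SE. None of these marker lists had a gene at 0 in all libraries, and their part in the levels of the hedgehog genes was not tested. With the choroid plexus level as a covariate, 0 of 7 members were again called in all 8 comparisons.

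As a description of pattern, the genes most like each member were found by Pearson's r of log2(CPM + 0.1) over the 10 libraries, among 14220 genes with a mean of at least 1 CPM. For *Shh* they were *Tollip* (r = 0.88) and *Relt* (r = 0.87), for *Ptch1* *Scrt1* (r = 0.98) and *Mtap4* (r = 0.97), and for *Smo* *Klhl13* (r = 0.92) and *Ttll3* (r = 0.88). *Gli2* was most like *Fbxw5* (r = 0.96) and *Grhpr* (r = 0.93), and *Gli3* was most like *Ttc28* (r = 0.87) and *Plxnd1* (r = 0.87). *Hhip* was most like *2610017I09Rik* (r = 0.97) and *Nkain2* (r = 0.96), and *Sufu* was most like *Pcgf6* (r = 0.95) and *Lztfl1* (r = 0.95). No member was among the genes most like another. Between members r ran from -0.78 for *Shh* and *Smo* to 0.72 for *Ptch1* and *Hhip*. All of these points share the same 10 libraries and their 5 groups.

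The wider pathway was read from a list of 41 further genes, of which 32 had a row and passed the filter. *Ihh*, *Dhh*, *Disp1*, *Scube2*, *Scube3*, *Lrp2*, *Kif7*, *Gpr161* and *Foxm1* were not analysed here. At 6 h after SE 0 of 32 were called by limma, beside 2.96% of all genes called. Of the 32, 4 had an unadjusted p under 0.05 in limma, against 17.7% of all genes. edgeR called 0 and DESeq2 called 1, *Hhat*, which limma without the intensity trend also called. At 2 days 2 of 32 were called, *Scube1* higher and *Mycn* lower, against 5.66% of all genes. Of the 32 genes, 7 had an unadjusted p under 0.05 at 2 days (19.8% of all genes). Between SE 2 days and SE 6 h 1 of 32 was called, *Scube1*, against 4.25% of all genes, and 6 had an unadjusted p under 0.05 (20.1%). With the choroid plexus level as a covariate, *Ccnd2* (-1.23, limma adjusted p = 0.03), *Prkaca* (-1.0, adjusted p = 0.027) and *Evc2* (-1.0, adjusted p = 0.038) were also called lower at 2 days, and *Ccnd2* between the SE times. *Ccnd2* and *Prkaca* were singled out after their values were seen. *Ccnd2* was also called in both comparisons by DESeq2 and by limma without either SE + LEV 2 days mouse. With LEV 0 of 32 were called at either time by limma, edgeR or DESeq2 (at an unadjusted p under 0.05, 1 at 6 h against 4.58% of all genes and 3 at 2 days against 2.7%). The median log2 fold change of the 32 genes was -0.12 at 6 h and -0.18 at 2 days after SE and 0.11 and 0.14 with LEV, beside the -0.13, -0.03, 0.04 and 0.04 of all genes.

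Among genes that act on the ligand, *Scube1*, which encodes a secreted and membrane-bound protein of the Scube family, was at 30.07 and 28.89 CPM in pre-SE, 28.45 and 28.44 CPM in SE 6 h, 33.19 and 61 CPM in SE + LEV 6 h, 74.75 and 79.91 CPM in SE 2 days and 55.3 and 36.92 CPM in SE + LEV 2 days. Both SE 2 days mice lay above all 8 others. *Scube1* rose at 2 days by 1.39 on the log2 scale against pre-SE (standard error 0.31, interval 0.71 to 2.07, limma adjusted p = 0.027) and by 1.44 against SE 6 h (standard error 0.31, interval 0.76 to 2.12, adjusted p = 0.03). Leaving out any 1 mouse of the groups compared kept the estimate against pre-SE between 1.34 and 1.44 but ended the call, with a limma adjusted p of 0.08 to 0.19, and the call against SE 6 h was lost in the same way (0.13 to 0.15). *Hhat*, which encodes the acyltransferase that adds palmitate to the ligand, was at 0.55 and 0.5 CPM in pre-SE, 1.67 and 1.92 CPM in SE 6 h, 1.5 and 0.85 CPM in SE + LEV 6 h, 1.14 and 1.67 CPM in SE 2 days and 0.71 and 0.66 CPM in SE + LEV 2 days. All post-SE mice lay above both pre-SE mice, on 9 to 52 tags per library. The 95% Poisson interval was 0.315 to 0.896 CPM for pre-SE replicate 1 and 0.376 to 1.07 CPM for SE + LEV 2 days replicate 2. These nearest libraries were thus not separated at this depth, whereas the intervals of the SE 6 h mice began at 1.25 and 1.27 CPM. The log2 fold change was 1.60 at 6 h (standard error 0.41, interval 0.68 to 2.52, limma adjusted p = 0.077). It was called by DESeq2 (adjusted p = 0.032) and by limma without the intensity trend (adjusted p = 0.036). In SE + LEV 2 days against SE 2 days it was -0.92 (interval -1.84 to 0.00, limma adjusted p = 1.0).

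Of the co-receptors, *Cdon*, which binds the ligand, was at 5.86 and 5.09 CPM in pre-SE and 1.99 to 3.91 CPM in all 8 post-SE mice, so that pre-SE lay above every other library. Its log2 fold change was -0.94 at 6 h (interval -1.84 to -0.04, limma adjusted p = 0.26) and -0.99 at 2 days (interval -1.89 to -0.09, adjusted p = 0.21). *Boc*, another co-receptor, was at 6.45 and 9.66 CPM in SE 6 h and 5.25 and 4.55 CPM in SE + LEV 6 h (-0.68, interval -1.44 to 0.08, limma adjusted p = 1.0).

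The 8 genes of the primary cilium, the organelle through which the signal runs, had log2 fold changes of -0.86 to 0.67 at 6 h and -0.91 to 0.44 at 2 days, with 0 of 8 called at either time by limma. *Evc* and *Evc2* encode partners of Smoothened in the cilium. *Evc2* was at 29.66 and 23.38 CPM in pre-SE, 23.29 and 19.53 CPM in SE 6 h, 19.27 and 26.94 CPM in SE + LEV 6 h, 14.46 and 13.52 CPM in SE 2 days and 20.99 and 28.26 CPM in SE + LEV 2 days. At 2 days after SE its log2 fold change was -0.91 (interval -1.53 to -0.29, limma adjusted p = 0.097), which was called by DESeq2 (adjusted p = 0.029) and with the choroid plexus covariate. As for *Smo*, both SE 2 days mice lay below both pre-SE mice and both SE + LEV 2 days mice lay above the SE 2 days mice, with a log2 fold change of 0.80 for LEV at 2 days (standard error 0.28, interval 0.17 to 1.42, unadjusted p = 0.017, limma adjusted p = 1.0). *Evc* was at 4.07 and 3.58 CPM in SE 2 days and 6.65 and 6.57 CPM in SE + LEV 2 days (0.78, interval 0.06 to 1.5, limma adjusted p = 1.0). The 10 kinases and degradation factors lay between -0.71 and 0.20 at 6 h and between -0.98 and 0.45 at 2 days, with 0 of 10 called.

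Of 8 target genes measured, *Mycn*, a transcription factor gene that drives proliferation, was at 8.1 and 8.43 CPM in pre-SE, 6.54 and 5.89 CPM in SE 6 h, 2.03 and 3.7 CPM in SE + LEV 6 h, 2.5 and 2.63 CPM in SE 2 days and 4.46 and 4.35 CPM in SE + LEV 2 days. All 8 post-SE mice lay below both pre-SE mice. *Mycn* fell at 2 days by 1.65 on the log2 scale (standard error 0.35, interval -2.43 to -0.87, limma adjusted p = 0.023), to 0.319 times pre-SE. Leaving out any 1 of the 4 mice compared kept the estimate between -1.69 and -1.62 but ended the call, with an adjusted p of 0.079 to 0.14. *Ccnd1*, which encodes cyclin D1, was at 9.79 and 12.98 CPM in pre-SE, 30.19 and 78.71 CPM in SE 2 days and 53.72 and 11.83 CPM in SE + LEV 2 days. Its log2 fold change at 2 days was 2.10 (standard error 0.65, interval 0.65 to 3.55, limma adjusted p = 0.098). It was called by DESeq2 (adjusted p = 0.0032), by limma on only the groups compared (0.028), and by limma without SE + LEV 2 days replicate 1 (0.021) or replicate 2 (0.02). The estimate was 2.79 without SE 2 days replicate 1 and 1.41 without SE 2 days replicate 2, with neither called. The SE + LEV 2 days mice lay on either side of SE 2 days replicate 1. The *Mycn* and *Scube1* genes lie at chr12:12942902-12948720 and chr15:83433013-83555451 of mm9, both on the minus strand, and overlap no annotated gene.

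**Figure D4:**
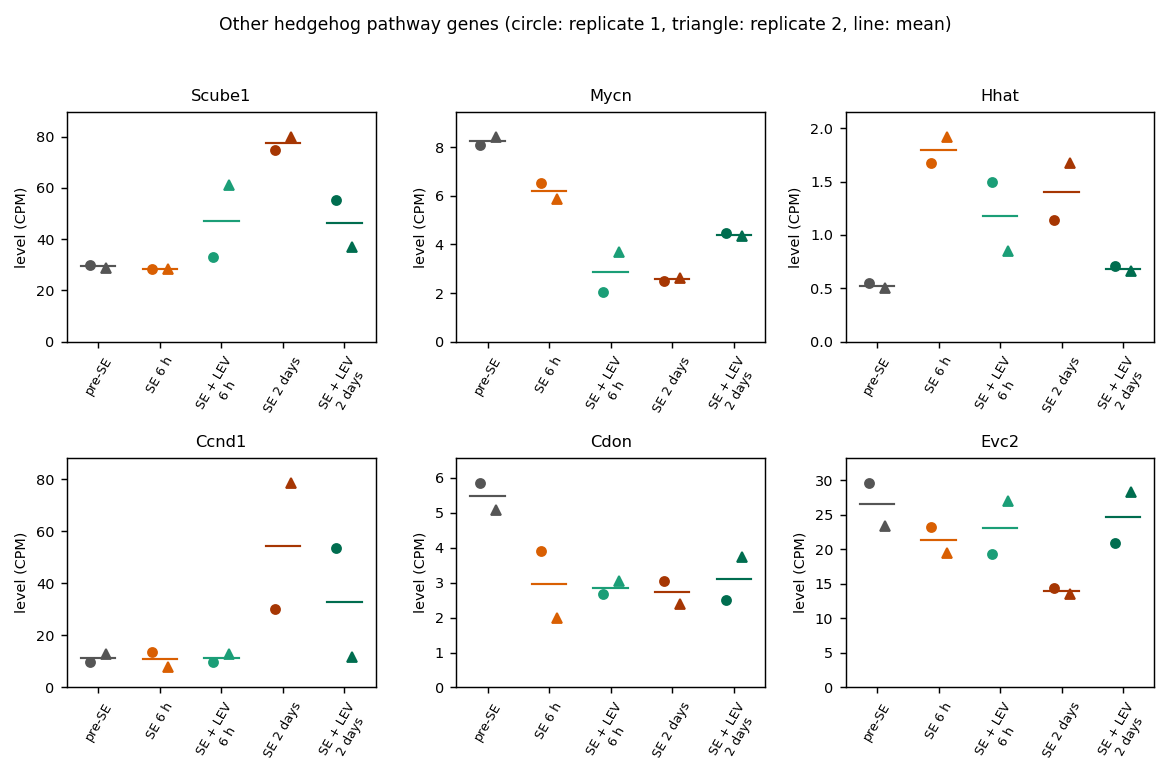
Level in CPM (vertical axis, from 0) of 6 other hedgehog pathway genes in each library, by group, with a symbol per mouse and a line at the mean of 2 mice. *Scube1* was highest in both SE 2 days mice, at 74.75 and 79.91 CPM, and *Mycn* was highest in both pre-SE mice, at 8.1 and 8.43 CPM.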

How the data were processed

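Whole-hippocampus RNA of 10 ICR mice was measured by CAGE. Tags were aligned by the authors to mm9 (BWA 0.7.17, then HISAT2 2.0.5 for those left unmapped) and clustered. They kept reproducible clusters with bedtools 2.12.0, and tested them with edgeR 3.22.5; the deposited gene table holds CPM per mouse and comes with no raw counts. How clusters were summed to genes, and whether by strand, is not given in the sources used here. Of the per-mouse columns, 0 were unused.

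Groups followed the sample labels. Values were analysed as log2(CPM + 0.1) with limma 3.58.1 (R 4.3.3), 1 fit of all 5 groups with an intensity trend, Benjamini-Hochberg adjusted over 15851 genes and called at an adjusted p of at most 0.05. Intervals are 95%. CPM steps gave whole tags for 100% of values within rounding in every library, and edgeR 4.0.16 and DESeq2 1.42.0 were run on these tags as alternatives. edgeR called 497 genes higher and 20 lower at 6 h, against 437 and 32 by limma. Counting intervals cover counting error only. Nothing says whether the 2 mice of a group were handled separately throughout, so p-values measure the spread between these samples. The scripts were tested on simulated data.

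The members, gene lists and tests were chosen with earlier results of these data known. Named genes were the members, other pathway genes called in any comparison, the 3 such genes with the largest non-overlapping difference per comparison of SE with pre-SE or of LEV with SE, the 2 genes most alike to each member, and markers or overlapping genes standing beside a result. A gene that this rule names is not reported here. Marker lists covered neurons, astrocytes, oligodendrocytes, microglia, endothelium, mural cells, stem cells and choroid plexus. Summed over each list, microglia genes ran from 71.5 to 373 CPM, endothelial genes from 60.1 to 178 CPM, mural or fibroblast genes from 113 to 222 CPM and stem or progenitor genes from 130 to 264 CPM. Alternatives changed the pseudocount, filter, scaling, trend, samples fitted, replicate block and test, and left out each mouse; the choroid plexus covariate was chosen after seeing the data.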

Additional observations from a re-analysis of the deposited data

Results flagged for a closer look

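Groups of 2 mice were too small to screen for single libraries far from the rest. Among the 7 members and 32 wider pathway genes, *Mycn* and *Scube1* were those for which SE + LEV and SE mice separated in opposite directions at the 2 times. Over all genes tested, the groups were separate with LEV for 29.5% at 6 h and 27.4% at 2 days. The share of all genes separate in opposite directions was not counted, so these 2 genes are not shown to stand out. *Mycn* was lower in both SE + LEV 6 h mice than in both SE 6 h mice, with a log2 fold change of -1.15 (interval -1.93 to -0.37, limma adjusted p = 0.71), and higher in both SE + LEV 2 days mice than in both SE 2 days mice, at 0.76 (interval -0.02 to 1.54, adjusted p = 1.0). The difference between the 2 effects was 1.91 (standard error 0.50, unadjusted p = 0.0032), which did not pass after adjustment (limma adjusted p = 1.0). *Scube1* was higher with LEV at 6 h, at 0.66 (interval -0.02 to 1.34), and lower at 2 days, at -0.77 (interval -1.45 to -0.09), both with a limma adjusted p of 1.0. The difference was -1.43 (standard error 0.43, unadjusted p = 0.0078, limma adjusted p = 1.0).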

How the results depend on the processing

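The count of called members was 0 in all 8 comparisons under all 12 alternatives and with each mouse left out. *Hhip* at 6 h after SE turned from -0.05 to 0.08 with median-of-ratios scaling, 0.06 with edgeR and 0.06 with DESeq2, and *Gli2* with LEV at 6 h turned from 0.01 to -0.05, -0.04 and -0.04 under the same 3. These scalings bring the median gene of SE 6 h against pre-SE from -0.13 to between -0.005 and -0.002. For SE + LEV 6 h against SE 6 h they bring it from 0.041 to between -0.014 and -0.005. With 1 mouse left out, the sign also turned at 6 h for *Ptch1* (-0.23 to 0.56), *Gli3* (-0.45 to 0.08) and *Hhip* (-0.23 to 0.13), at 2 days for *Shh* (-0.03 to 0.47) and *Gli3* (-0.03 to 0.50), with LEV at 6 h for *Shh* (-0.34 to 0.28), *Ptch1* (-0.56 to 0.23), *Smo* (-0.49 to 0.17), *Gli2* (-0.16 to 0.18) and *Hhip* (-0.61 to 0.13), and with LEV at 2 days for *Shh* (-0.77 to 0.12), *Hhip* (-0.36 to 0.75) and *Sufu* (-0.10 to 0.36). A group left with 1 mouse was assumed to vary like the others. *Hhip* at 2 days against pre-SE stayed between -1.39 and -1.03 (limma adjusted p 0.10 to 0.45).

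Of the wider list, DESeq2 called 5 genes at 2 days and 4 between the SE times, and the choroid plexus covariate, chosen after seeing the data, gave 5 and 2. Over all genes, limma called 437 higher and 32 lower at 6 h and 803 and 94 at 2 days, and DESeq2 1008 and 99, and 1260 and 347. With LEV at 6 h limma called 0 higher and 2 lower, and DESeq2 6 and 69. Between the SE times the split was 498 higher and 176 lower in limma, 387 and 218 with median-of-ratios scaling, 707 and 586 with DESeq2 and 743 and 355 with the covariate. For SE + LEV 2 days against pre-SE the count fell from 448 higher and 3 lower to 66 and 1 when only those groups were fitted. With 1 mouse left out, 108 to 494 genes were higher at 6 h and 245 to 990 at 2 days.

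Same-numbered mice are different animals, and the correlation of their deviations ran from -0.44 to 0.34 over 7 comparisons. With the replicate number as a block, 0 of 7 members were called in all 8 comparisons, and *Hhip* at 2 days had a log2 fold change of -1.21 and a limma adjusted p of 0.17.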
